A study of Danio rerio with 12 samples.

Results

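Canagliflozin was compared with its vehicle, DMSO, in whole zebrafish embryos (Danio rerio) over every gene with a mean of at least 1 CPM (counts of a gene as a part of its library's reads, here scaled by TMM, which evens out composition between libraries) across the 12 libraries of the study. That rule took 11964 of the 14134 genes in the table and set 2170 aside. The lowest mean taken was 1.00023 CPM and the highest left out 0.998 CPM. Dechorionated, healthy embryos selected for GFP were exposed from 23 hours post-fertilization (hpf) and collected at 27 hpf, after 4 hours. All of the embryos carried GFP, controls included, and the labels do not give the transgene, its promoter, the strain or the clutch. Each of the 8 samples compared was RNA pooled from 5 embryos, with 4 pools in DMSO and 4 in 50 µM canagliflozin. The 4 pools in 50 µM empagliflozin, the other compound of the study, entered the fit. Their values are given beside a few results, and a difference between the compounds is read only where it was tested. Since no label ties a pool to a separate clutch, p-values here speak of the spread among these pools, which may in part be technical.

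Canagliflozin belongs to the gliflozins, inhibitors of the sodium-glucose cotransporter SGLT2, which is encoded by slc5a2 and takes up filtered glucose in the kidney tubule. In mammalian cells canagliflozin has also been described to inhibit complex I of the mitochondrial respiratory chain and to activate AMP-activated protein kinase, which senses cellular energy. At this stage the zebrafish embryo lives on yolk, its heart beats, the lens is starting to build crystallins, and much of the brain and eye is still dividing.

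The 8 libraries held 16149682 to 24071499 reads, so that 1 read was worth 0.0417 to 0.0621 CPM, and 1 pool of each group stood apart from the others. On the main axis of variation, which held 41.8% of the variance over the 12 libraries, control 4 scored 7.52 and canagliflozin 4 scored 5.95. The other 6 pools of the comparison lay between -17.9 and -8.92, and the empagliflozin pools between 15.6 and 18.6. The median SD of log2(CPM + 1) within a group was 0.139 in controls and 0.143 in canagliflozin, and 0.102 and 0.0890 without those pools. Medians without both are therefore plotted for every gene family and given in the text for some. What sets these pools apart was not tested. A drug has no targeted transcript by which the labels of the pools could be checked.

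In limma and in edgeR no gene passed an adjusted p of 0.05 between canagliflozin and control, and other tools called few. limma called 0 of 11964 genes (0%), with a smallest adjusted p of 0.385, and 925 genes (7.73%) had an unadjusted p under 0.05, of which 503 had a higher (4.20%) and 422 a lower value (3.53%) in canagliflozin. edgeR on the recovered reads also called 0 genes, with 926 at an unadjusted p under 0.05. DESeq2 called 24 genes (0.201%), 11 higher and 13 lower, and limma with a weight per library called 42 (0.351%), 10 higher and 32 lower. Both of these called 17 genes in common. Without control 3, limma called 7 genes (0.0585%), all of them crystallin gamma M2d copies with lower values, and all of these were also called by DESeq2 and with weights. The ranges of the 4 controls and the 4 canagliflozin pools were apart in 537 genes (4.49%), 318 higher (2.66%) and 219 lower (1.83%) in canagliflozin. These shares are the background for every count of family members given below. Without control 4 and canagliflozin 4 the same count, of 3 pools against 3, was 1963 genes. The authors' deposited table lists 3 genes at a false discovery rate under 0.05, cbln2b, mcm4 and pet100, with log2 changes of -0.28, 0.23 and -0.24.

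These pools also set limits on how large any change could be. The scale, log2(CPM + 1), makes folds of genes with few CPM look smaller than they are. On it the median difference was -0.003, 5% of genes lay below -0.23 and 5% above 0.20. The 95% interval of a gene, taken for each gene by itself, reached 0.22 to either side at the median. The larger bound of that interval is taken here as the gene's size limit, the largest fold in either direction that its interval holds. The size limit was below a ratio of 5 to 4 in 6338 genes (53.0%), below 1.5-fold in 11343 (94.8%) and below 2-fold in 11908 (99.5%). By level, it was below 1.5-fold in 84.1% of 2022 genes at 1 to 5 CPM, 94.6% of 3523 at 5 to 20 CPM, 98.2% of 4624 at 20 to 100 CPM and 98.4% of 1795 at 100 CPM and over. An interval that lay wholly beyond a ratio of 5 to 4 was found in 10 genes, of which 7 were crystallin gamma M2d copies and the others were rn7sk, atoh7 and zgc:171792. No interval lay wholly beyond 1.5-fold. These bounds hold for bulk RNA of 5 whole embryos, in which a smaller number of cells of a type and less RNA in each such cell cannot be told apart, and a change confined to a small organ may be diluted in them.

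**Figure D1:**
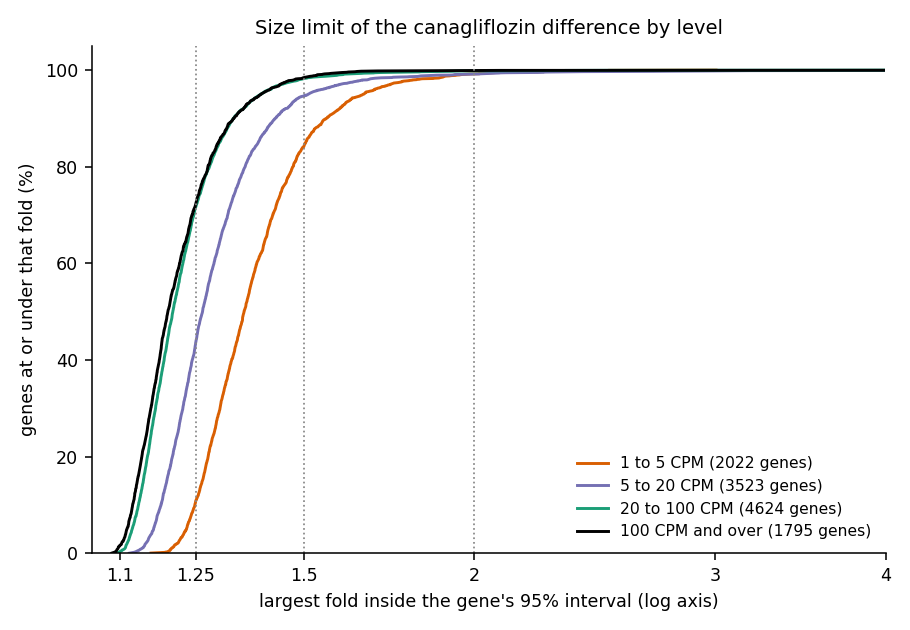
Cumulative share of genes (percent, vertical axis) by size limit, the largest fold inside the gene's 95% interval (horizontal log axis, cut at 4-fold), for 4 classes of mean CPM. Folds are on the log2(CPM + 1) scale, which makes those of genes with few CPM look smaller than they are. The curves of the 3 upper classes stand at 94.6% to 98.4% at 1.5-fold, and that of genes at 1 to 5 CPM stands at 84.1% there.

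**Figure D2:**
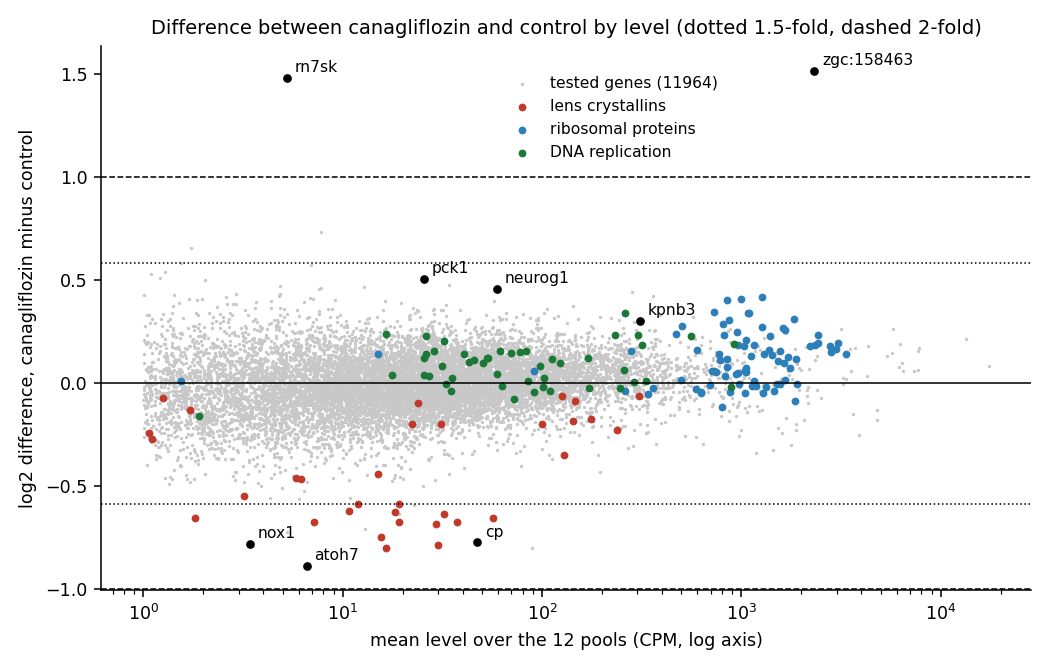
Log2 difference of canagliflozin minus control (vertical axis) against mean CPM over the 12 pools (horizontal log axis), 1 point per tested gene. Lens crystallins (red) lie below 0, and most ribosomal proteins (blue) and DNA replication genes (green) above 0. The 2 genes past 2-fold on the log2(CPM + 1) scale are rn7sk and zgc:158463.

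Of the 56 genes whose size limit reached 2-fold, 7 were crystallins, and most of the others varied widely among pools of 1 group. On the log2(CPM + 1) scale a difference of 2-fold or more was measured for 2 genes, and neither encodes a protein. RefSeq (GRCz12tu) lists zgc:158463 as a ribosomal RNA and rn7sk as the small nuclear RNA 7SK. In plain CPM other genes passed 2-fold as well, among them atoh7, with means of 7.23 CPM in controls and 3.03 CPM in canagliflozin. Controls 1 to 4 held 818, 854, 727 and 681 CPM of zgc:158463, and canagliflozin pools 1 to 4 held 851, 5553, 4590.0 and 1073 CPM. For rn7sk, the values were 1.81, 1.68, 1.65 and 1.5 CPM in controls 1 to 4 and 1.74, 15.1, 14.1 and 3.58 CPM in canagliflozin 1 to 4. For both genes canagliflozin 2 and 3 were high, canagliflozin 1 was within the control range, and empagliflozin pools 1 and 2 were high as well, at 7173 and 3431 CPM of zgc:158463 and 11.3 and 7.23 CPM of rn7sk. Their log2 differences were 1.52 (0.21 to 2.83) and 1.48 (0.34 to 2.63). Neither is a polyadenylated RNA, the libraries were made with an mRNA kit, and the efficiency of that selection in each pool was not tested.

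A second group of wide genes was high in control 3 and in canagliflozin 1 and 2. In 15 of the 56 genes these 3 pools lay above the other 5, as they did in 463 of all 11964 genes. They included mmp9, a matrix metalloproteinase induced by injury, and fosab, an immediate-early transcription factor gene. In controls 1 to 4 mmp9 was at 7.89, 13.7, 92.0 and 7.92 CPM, and in canagliflozin 1 to 4 it was at 67.2, 52.3, 7.75 and 4.87 CPM. Canagliflozin pools 1 to 4 had fosab at 8.76, 13.0, 1.44 and 1.68 CPM, against 3.80, 3.35, 23.0 and 3.09 CPM in controls 1 to 4. High and low pools occurred in both groups. Their log2 differences of 0.20 (-1.61 to 2.0) and -0.30 (-1.56 to 0.96) changed sign with the pool left out, and so did that of irg1l, an inflammation-induced gene, at -0.22 (-2.10 to 1.67). The size limits of mmp9 and irg1l were 4.0-fold and 4.30-fold.

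Lens crystallins, the structural proteins that fill lens fibre cells, had the lowest medians of the 93 gene families with at least 5 tested genes. Of 48 crystallin genes listed, 33 were tested, and all 33 had a lower mean in canagliflozin, where 51.1% of all tested genes did. The median log2 difference was -0.46, against -0.003 over all tested genes, and 20 of the 33 had an unadjusted p under 0.05, where 3.53% of all genes had one with a lower value. The 18 tested copies of crystallin gamma M2d made up most of this. Their median was -0.64, 17 of the 18 had an unadjusted p under 0.05, and in 8 the pools did not overlap, all with lower values, where 1.83% of all tested genes had such a gap. These 8 copies were also the only ones of the 33 crystallins whose pools did not overlap. Since the copies are near-identical, values of single copies are uncertain, and their summed level is the safer measure. Counts that include them are not counts of independent genes. Summed over the 18 copies, the controls stood at 409, 434, 244 and 299 CPM and the canagliflozin pools at 199, 230.3, 209 and 196 CPM. All 4 canagliflozin pools lay below all 4 controls, but control 3 lay near them. Summed over all 33 crystallins, controls 1 to 4 held 1882.5, 2135, 1455 and 1678 CPM. Canagliflozin pools 1 to 4 held 1383, 1552, 1397.5 and 1638 CPM. In this wider sum the groups overlapped, with control 3 below canagliflozin 2 and 4.

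Among single copies, the difference in crygm2d3 had the smallest p of all genes. crygm2d3 was at 34.2, 40.0, 24.7 and 26.9 CPM in controls 1 to 4 and at 17.1, 21.7, 18.6 and 18.4 CPM in canagliflozin pools 1 to 4. The pools did not overlap, and controls 3 and 4 lay between the other controls and the canagliflozin pools. The log2 difference was -0.68 (-0.94 to -0.42), with a limma adjusted p of 0.385 and a DESeq2 adjusted p of 0.00115. Controls 1 to 4 held 18.2, 20.4, 9.86 and 14.1 CPM of crygm2d5, and canagliflozin pools 1 to 4 held 8.10, 8.38, 8.65 and 7.87 CPM. For crygm2d21, the values were 38.7, 38.5, 21.2 and 28.9 CPM in controls 1 to 4 and 16.7, 19.7, 16.7 and 17.1 CPM in canagliflozin 1 to 4. For crygm2d5 and crygm2d21 the difference was -0.80 (-1.17 to -0.43) and -0.79 (-1.13 to -0.45). crygm2d7, crygm2d8 and crygm2d10 differed by -0.67, -0.67 and -0.65, and control 3 was the lowest control in each of the 6. crygm2d4 differed by -0.74, and the copy with the smallest difference was crygm2d11 at -0.27.

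cryba2b and crybb1 encode beta crystallins, which are also lens fibre proteins, and crybb1 had the difference nearest 0 of the 33 crystallins. In controls 1 to 4 cryba2b was at 150.0, 165, 111 and 125 CPM, and in canagliflozin 1 to 4 it was at 101, 112, 99.9 and 114 CPM. Canagliflozin 2 and 4 lay above control 3, so that the pools of cryba2b overlapped, at a log2 difference of -0.35 (-0.56 to -0.13). Canagliflozin pools 1 to 4 had crybb1 at 245, 279, 247 and 329.8 CPM, against 277, 329.8, 245 and 295 CPM in controls 1 to 4. Here the groups overlapped fully, and crybb1 differed by -0.06 (-0.29 to 0.17), a size limit of 1.22-fold. cryaa, for the small heat shock protein alpha A crystallin, was at a few CPM and differed by -0.47 (-1.04 to 0.10). mipb, which encodes the aquaporin of lens fibres, differed by -0.27 (-0.51 to -0.03) and its pools overlapped.

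**Figure D3:**
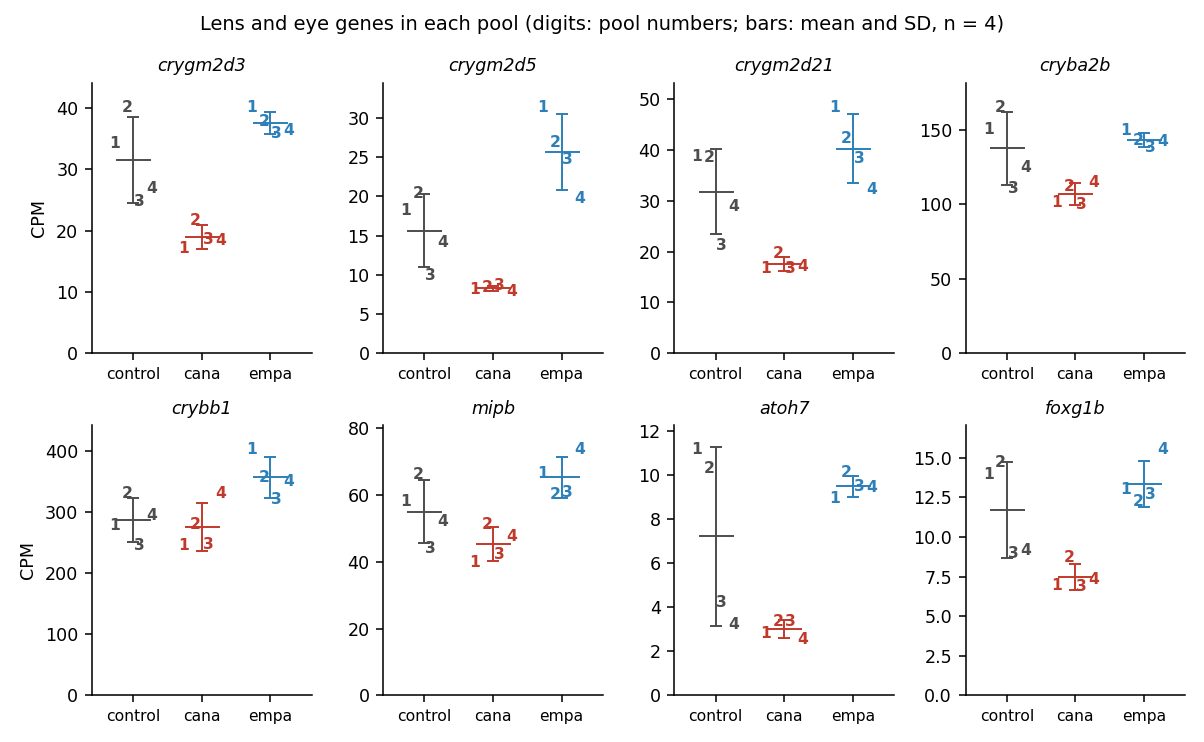
CPM (vertical axes, each from 0) of 6 lens genes and 2 forebrain and eye transcription factor genes in each pool, with the pool number as the symbol and bars for mean and SD (n = 4) in control, canagliflozin (cana) and empagliflozin (empa). Canagliflozin pools of the 3 gamma M2d copies, crygm2d3, crygm2d5 and crygm2d21, lie below every control, and controls 3 and 4 lie below controls 1 and 2 in most panels.

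Genes of the early retina and forebrain had differences of both signs. Of 28 tested lens and retina markers 21 had a lower mean, with a median of -0.07; 3 had an unadjusted p under 0.05 with a higher value and 6 with a lower, where 4.20% and 3.53% of all tested genes had one. atoh7 drives the birth of retinal ganglion cells and had the lowest difference of the list. atoh7 was at 11.2, 10.3, 4.23 and 3.21 CPM in controls 1 to 4 and at 2.83, 3.35, 3.38 and 2.57 CPM in canagliflozin pools 1 to 4. Controls 3 and 4 stood near the canagliflozin pools, and controls 1 and 2 about as high as the empagliflozin pools, which ran from 8.97 to 10.1 CPM. The difference was -0.89 (-1.44 to -0.34), with a limma adjusted p of 0.493, and the groups differed mainly through controls 1 and 2. foxg1b, a forkhead gene of the forebrain, was also highest in controls 1 and 2. Controls 1 to 4 held 14.0, 14.7, 8.99 and 9.17 CPM of foxg1b, and canagliflozin pools 1 to 4 held 6.97, 8.69, 6.91 and 7.30 CPM. Its difference was -0.56 (-0.87 to -0.25), and the photoreceptor gene crx differed by -0.40.

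The transcription factor genes rx3 and foxe3 had higher values in canagliflozin, against the direction of most of that list. For rx3, the values were 3.86, 4.48, 4.54 and 4.0 CPM in controls 1 to 4 and 6.08, 5.59, 6.61 and 5.93 CPM in canagliflozin 1 to 4. In controls 1 to 4 foxe3 was at 3.68, 5.32, 4.85 and 3.84 CPM, and in canagliflozin 1 to 4 it was at 6.12, 5.90, 6.46 and 6.37 CPM. rx3 is needed to form the eye field and foxe3 is a lens progenitor factor. The pools of both genes did not overlap, and controls 3 and 4 stood with the other controls. The differences were 0.43 (0.20 to 0.66) and 0.42 (0.18 to 0.66), with a limma adjusted p of 0.487 and 0.493. The eye homeobox genes six3b and six6b differed by 0.25 and -0.27, in opposite directions.

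Neural progenitor genes had a higher and genes of differentiated neurons a lower median, both by small amounts. Of 20 tested neural progenitor markers 17 had a higher mean, with a median of 0.07, and of 30 neuron markers 22 had a lower mean, with a median of -0.06. In summed level the pools of the 2 groups overlapped for both lists. The mean sums in controls and canagliflozin were 3528 and 3678 CPM for progenitor markers and 2151 and 2129 CPM for neuron markers. Both medians kept their sign under each of 22 alternatives, and without control 4 and canagliflozin 4 they were 0.08 and -0.08. Some of the alternatives could not turn a sign, since they leave the differences unchanged. These were the replicate block, the 8 libraries alone, no minimum CPM, no variance trend and robust variance. The 15 tested proneural bHLH genes were split, with 8 higher and 7 lower. Their median was 0.04, which turned to -0.04 without canagliflozin 4. neurog1, a proneural factor that commits progenitors to a neuronal fate, had the highest difference among them. Canagliflozin pools 1 to 4 had neurog1 at 68.6, 65.5, 68.6 and 89.1 CPM, against 46.6, 54.5, 51.4 and 58.0 CPM in controls 1 to 4. The pools did not overlap, canagliflozin 4 was the highest, and the difference was 0.46 (0.25 to 0.67). olig2, a factor of motor neuron and oligodendrocyte progenitors, was at 20.2 to 22.8 CPM in controls and at 25.2 to 28.2 CPM in canagliflozin, a difference of 0.31 (0.15 to 0.48). The progenitor repressor gene her9 differed by 0.27 and the radial glia gene fabp7a by -0.29.

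DNA replication genes had higher values in canagliflozin, and the size of the shift did not rest on the pools that stood apart. Of 48 tested members 37 had a higher mean, where 48.9% of all tested genes did. Their median was 0.099, and 0.10 without control 4 and canagliflozin 4. An unadjusted p under 0.05 with a higher value was found in 9 of them and with a lower value in 0, where 4.20% and 3.53% of all tested genes had one. In 7 the pools did not overlap, all with higher values, where 2.66% of all tested genes had such a gap. Summed over the 48 genes, the controls held 6661, 6781, 6974 and 6905 CPM and the canagliflozin pools 7378, 7514, 7379 and 7157 CPM. The pools did not overlap in this sum, whose means differed by a factor of 1.08. They did overlap by the median deviation of the 48 genes from their means over the 8 libraries. There control 3 stood at 0.015, above canagliflozin 4 at -0.006.

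The MCM helicase is a ring of 6 different subunits that unwinds DNA at the fork. For some of these subunits the pools did not overlap, and for others the difference was near 0. mcm4 was at 289.9, 293, 288 and 292 CPM in controls 1 to 4 and at 328, 353, 344 and 342 CPM in canagliflozin pools 1 to 4. The 4 controls of mcm4 lay close together, below all 4 canagliflozin pools. Controls 1 to 4 held 216, 218, 232 and 231 CPM of mcm3, and canagliflozin pools 1 to 4 held 272, 272, 274 and 240.1 CPM. For mcm7, the values were 201, 245, 271 and 265 CPM in controls 1 to 4 and 296, 290.4, 315 and 337 CPM in canagliflozin 1 to 4. Control and canagliflozin pools of mcm3 and mcm7 did not overlap either, although canagliflozin 4 of mcm3 lay close to controls 3 and 4. The log2 differences were 0.23 (0.11 to 0.35) for mcm4, 0.24 (0.11 to 0.36) for mcm3 and 0.34 (0.15 to 0.53) for mcm7, with limma adjusted p of 0.487, 0.487 and 0.487. mcm2 differed by 0.19 (0.04 to 0.33). mcm5 and mcm6 differed by 0.01 (-0.15 to 0.16) and 0.01 (-0.14 to 0.17), a size limit of 1.12-fold for each, and changed sign with some settings. pcna, the sliding clamp of the polymerases, differed by 0.19. cdca7a, outside this family, encodes a chromatin protein linked to the cell cycle and differed by 0.28 (0.15 to 0.41), with 158 to 182 CPM in controls and 197 to 216 CPM in canagliflozin.

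Mitotic regulators had slightly higher values, and cyclins and kinesins showed less. Of 36 tested mitotic genes 27 had a higher mean, 6 had an unadjusted p under 0.05 with a higher value and 0 with a lower (4.20% and 3.53% over all tested genes), and the median was 0.07, or 0.07 without control 4 and canagliflozin 4. Taken as the median deviation of its genes, this family was 1 of 3 whose 8 pools did not overlap between groups, beside the gamma M2d copies and pigment cell markers. In the sum of the 36 mitotic genes the pools overlapped. There canagliflozin 4, at 5656 CPM, lay below controls 1 to 3, at 5696, 5770 and 5711 CPM. bub3, of the spindle checkpoint, differed by 0.32 (0.12 to 0.51), with control 1 far below the other controls, and the kinase gene plk1 by 0.21 (0.08 to 0.33). Cyclins and their kinases had a median of 0.06 with 13 of 23 higher. Kinesins had a median of -0.01 with 7 of 17 higher, a sign that turned in 6 of 22 alternatives.

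kpnb3, which encodes an importin that carries ribosomal proteins and other cargo into the nucleus, had the smallest p of any gene outside the crystallins. In controls 1 to 4 kpnb3 was at 269, 270.0, 298 and 306 CPM, and in canagliflozin 1 to 4 it was at 356, 371, 344 and 339.9 CPM. All canagliflozin pools lay above all controls, while the empagliflozin pools lay at 285 to 301 CPM. The difference was 0.30 (0.17 to 0.44), with a limma adjusted p of 0.385, and DESeq2 gave 0.00195.

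**Figure D4:**
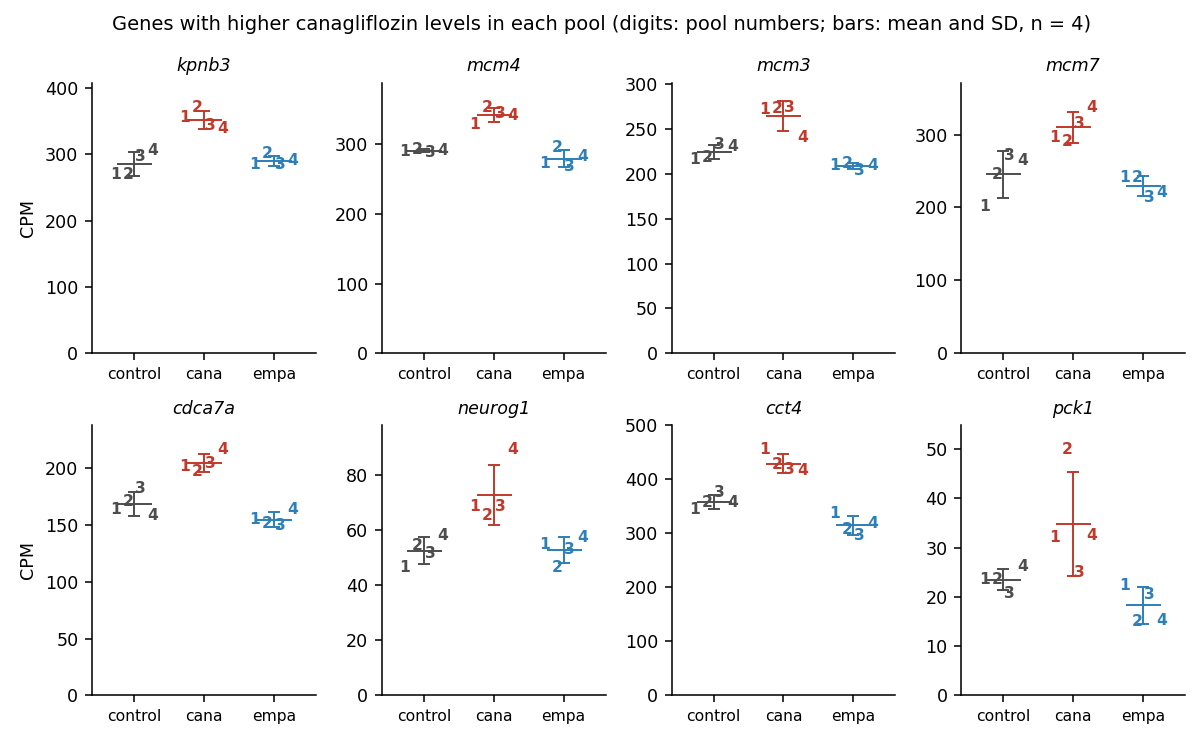
CPM (vertical axes, each from 0) of 8 genes with higher values in canagliflozin, in each pool, with the pool number as the symbol and bars for mean and SD (n = 4). In the panels of kpnb3, mcm4, mcm3, mcm7, cdca7a, neurog1 and cct4 all 4 canagliflozin (cana) pools lie above all 4 controls, while empagliflozin (empa) pools lie near or below the controls.

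Ribosomal protein genes had higher values as a group, with a shift that shrank without the pools that stood apart. Of 47 tested genes of the large subunit 34 had a higher mean, 14 of them with an unadjusted p under 0.05, against 0 with a lower value. Over all tested genes 48.9% had a higher mean, 4.20% an unadjusted p under 0.05 with a higher value and 3.53% with a lower. The median was 0.12, or 0.06 without control 4 and canagliflozin 4. Of 34 genes of the small subunit 27 had a higher mean, 8 of them with an unadjusted p under 0.05, against 0 with a lower value, and the median was 0.10, or 0.05 without those pools. Summed over the large subunit the controls held 56772, 61489, 61796 and 56126 CPM and the canagliflozin pools 69614, 61787, 61293 and 68274 CPM. Canagliflozin 1 and 4 were high and canagliflozin 2 and 3 lay within the control range.

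Single genes of the small subunit differed in direction and size. Canagliflozin pools 1 to 4 had rps10 at 1038, 881, 909 and 1199 CPM, against 655, 786, 796 and 789.6 CPM in controls 1 to 4. Control 1 was far below the other controls of rps10, which differed by 0.41 (0.18 to 0.63). rps18 had the lowest value of the small subunit at -0.12.

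Other parts of the protein-making machinery shared this direction with smaller medians. Of 69 translation factors 47 had a higher mean, and the median was 0.04. An unadjusted p under 0.05 was found in 11 with a higher value and 0 with a lower (4.20% and 3.53% over all tested genes). eef2b, an elongation factor that moves the ribosome along the mRNA, differed by 0.26 (0.07 to 0.45), and eef1a1l2, which brings tRNA to the ribosome, by 0.42 (0.13 to 0.71). Of 25 aminoacyl-tRNA synthetases 21 had a higher mean, with a median of 0.05, and iars and mars, which charge isoleucine and methionine, differed by 0.29 and 0.24. All 7 tested subunits of the chaperonin CCT, which folds actin and tubulin, had a higher mean, with a median of 0.10. cct4 was at 345, 358, 376 and 357 CPM in controls 1 to 4 and at 455, 427, 418 and 417 CPM in canagliflozin pools 1 to 4. The pools of cct4 did not overlap, and it differed by 0.26 (0.13 to 0.39).

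Splicing factors and proteasome subunits also had medians above 0, while hnRNP proteins, which bind nascent RNA, did not. Of 58 splicing factors 36 had a higher mean, with a median of 0.04. In 9 an unadjusted p under 0.05 came with a higher value and in 1 with a lower (4.20% and 3.53% over all tested genes). snrpc of the U1 particle was at 80.3 to 85.2 CPM in controls and 94.8 to 108 CPM in canagliflozin, a difference of 0.25 (0.12 to 0.38), and the splicing regulator gene srsf10b differed by 0.33. Of 19 hnRNP proteins 6 had a higher mean, with a median of -0.04, which turned to 0.03 without control 4. polr2b, for a catalytic subunit of RNA polymerase II, differed by 0.21 (0.09 to 0.33) without overlap of the pools. Of 44 proteasome subunits 31 had a higher mean, with a median of 0.04, and psmd3 differed by 0.29. Heat shock proteins and DnaJ chaperones went the other way by count and median, with 23 of 67 higher and a median of -0.04. dnajb5 was lowest at -0.42. Their summed level did not share that direction. It was 16657, 16936, 17076 and 16786 CPM in controls 1 to 4. In canagliflozin 1 to 4 it was 17619, 17147, 17128 and 18463 CPM, each above every control. All of the medians in this and the preceding paragraph other than that of hnRNP proteins kept their sign in 22 of 22 alternatives.

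Nuclear-encoded subunits of the respiratory chain had higher values, by at most 0.13 at the median. Of 36 tested complex I subunits 29 had a higher mean. At an unadjusted p under 0.05 there were 4 with a higher and 0 with a lower value (4.20% and 3.53% over all tested genes). The median was 0.07 and was 0.02 without control 4 and canagliflozin 4, and the size limit was below 1.5-fold for all 36. ndufb6 had the highest value of complex I at 0.27 (0.09 to 0.45). The median was 0.08 for 9 subunits of complex III (turned to -0.01 without control 4), 0.12 for 16 of complex IV and 0.13 for 16 of ATP synthase. Without both pools that stood apart these were 0.05, 0.06 and 0.10. Complex IV held the widest range, from cox4i2, an oxygen-regulated isoform, at -0.47 (-0.77 to -0.17) to cox6a1 at 0.32 (0.08 to 0.56). In the membrane ring of ATP synthase atp5g3b differed by 0.26 (0.07 to 0.45). No gene encoded by mitochondrial DNA was among the family lists.

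The energy sensor had a median near 0, and the pathways it acts on had small medians of both signs, the largest in cholesterol synthesis. The 7 tested subunits of AMP-activated protein kinase ran from -0.09 to 0.08, with a median of -0.002 and a median size limit of 1.22-fold. Their median was -0.03 without control 4 and canagliflozin 4, -0.08 without canagliflozin 4 alone, and turned to 0.03 without control 4 alone. prkaa1, a catalytic subunit, was lowest. These are levels of RNA and do not report kinase activity. Fatty acid oxidation genes had a median of -0.03 with 7 of 20 higher, and hadhaa of the mitochondrial trifunctional protein was lowest at -0.28. Tricarboxylic acid cycle genes had a median of 0.05 with 10 of 19 higher, and mitochondrial carriers of -0.04 with 19 of 45 higher (turned to 0.004 without control 1). The summed level of the 45 carriers was nonetheless higher in canagliflozin, by a factor of 1.09 between the means. It ran from 5330 to 5753 CPM in controls and from 5765 to 6427 CPM in canagliflozin, without overlap. Cholesterol synthesis genes had a median of 0.06, or 0.10 without control 4 and canagliflozin 4, with 16 of 26 higher. At an unadjusted p under 0.05 there were 5 with a higher and 0 with a lower value (4.20% and 3.53% over all tested genes). insig1, a sterol sensor, was highest in that list at 0.40 (0.07 to 0.73) with overlapping pools.

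The drug target and its relatives were barely detected or differed little. slc5a2, which encodes SGLT2, was at 0.292, 0.168, 0.310 and 0.0417 CPM in controls 1 to 4 and at 0.188, 0.0621, 0.149 and 0.0885 CPM in the canagliflozin pools, and slc5a1, for the intestinal and renal cotransporter SGLT1, was at 0.133 to 0.754 CPM. Both were below the minimum of 1 CPM and were not tested. A count of 0 would allow up to 3 reads, or 0.125 to 0.186 CPM in these libraries, so that several slc5a2 values are at or under that floor. Of 10 slc5a genes listed, 4 passed the minimum, and they ran from -0.15 to 0.11, with slc5a9 at -0.02 (-0.32 to 0.28). Of 12 facilitative glucose transporters of the slc2a family 10 were tested, 7 with a higher mean. Their median was 0.02, which was 0.10 without canagliflozin 4 and turned to -0.003 without canagliflozin 2. slc2a1a, the basal glucose transporter GLUT1, was highest. Controls 1 to 4 held 21.1, 22.7, 31.1 and 28.0 CPM of slc2a1a, and canagliflozin pools 1 to 4 held 33.7, 36.4, 29.6 and 31.9 CPM. Control 3 lay within the canagliflozin range, and slc2a1a differed by 0.36 (0.11 to 0.60), while slc2a12 was lowest at -0.21.

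Glycolysis had a median of 0.01, and its members split. Of 27 enzymes tested 16 had a higher mean. In 7 an unadjusted p under 0.05 came with a higher value and in 1 with a lower (4.20% and 3.53% over all tested genes). The aldolase gene aldoaa and the glucose phosphate isomerase gene gpia differed by 0.32 (0.14 to 0.50) and 0.31 (0.11 to 0.51). pfkmb, a muscle isoform of phosphofructokinase, was lowest at -0.29 (-0.61 to 0.03), with controls 1 and 2 at 90.4 and 92.9 CPM and controls 3 and 4 at 54.1 and 59.8 CPM. pck1, the rate-limiting enzyme of gluconeogenesis, had the highest value of its list of 16 genes, whose median was 0.02. That median was 0.10 without control 3 and turned to -0.008 without control 4. For pck1, the values were 23.6, 23.5, 20.8 and 26.1 CPM in controls 1 to 4 and 32.1, 49.8, 24.8 and 32.5 CPM in canagliflozin 1 to 4. Canagliflozin 2 was high and canagliflozin 3 lay within the control range, and the difference was 0.51 (0.15 to 0.87) with a limma adjusted p of 0.541. The hypoxia list, which shares slc2a1a, had a median of -0.00 with 12 of 25 higher, and that median turned to higher values in 15 of 22 alternatives, up to 0.04.

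Genes that handle foreign compounds had medians near 0. The median was 0.01 for 42 tested cytochrome P450 genes, -0.002 for 19 glucuronosyltransferases, a class that conjugates canagliflozin in humans, 0.00 for 17 glutathione transferases and -0.02 for 23 ABC transporters. Each of these turned sign in at least 3 alternatives. Unadjusted p under 0.05 was found in 1 of the P450 genes, cyp46a1.3, related to a brain cholesterol hydroxylase of mammals, at -0.44. It was also found in 2 glucuronosyltransferases, both lower, with ugt5f1 the lowest at -0.32. Over all tested genes 3.53% had such a p with a lower value. Nuclear receptors, 52 tested, had a median of -0.02, and rorb and thrb had the lowest values at -0.37 and -0.37.

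Collagens, the fibres and sheets of the extracellular matrix, had the lowest median after the crystallins. Of 25 tested genes 20 had a lower mean, 8 with an unadjusted p under 0.05 (51.1% and 3.53% over all tested genes). The median was -0.14, or -0.05 without control 4 and canagliflozin 4. In controls 1 to 4 col9a2 was at 341, 352, 277 and 379 CPM, and in canagliflozin 1 to 4 it was at 279.9, 279, 278 and 294 CPM. col9a2 and col9a3, cartilage and notochord collagens, differed by -0.24 (-0.45 to -0.04) and -0.26 (-0.46 to -0.06); control 3 of col9a2 lay just below all 4 canagliflozin pools. col17a1a, a collagen of the epidermal anchoring complex, was lowest at -0.44 (-0.87 to -0.01), with controls 1 and 2 at 40.3 and 45.2 CPM and controls 3 and 4 at 19.5 and 23.0 CPM. Integrins had a median of -0.10 with 3 of 14 higher, or -0.04 with 5 higher without control 4 and canagliflozin 4, and -0.0066 without canagliflozin 4 alone. Laminins had a median of 0.08 with 6 of 9 higher, which turned to -0.005 without control 4.

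Muscle and notochord markers had slightly lower medians, with pools that overlapped between the groups. Of 61 tested muscle genes 42 had a lower mean, 9 with an unadjusted p under 0.05 (51.1% and 3.53% over all tested genes). The median was -0.06, or -0.07 without control 4 and canagliflozin 4. Summed over the 61 genes, controls 1 to 4 held 54740, 53367, 45223 and 48070 CPM. Canagliflozin pools 1 to 4 held 48783, 45691, 47096 and 47469 CPM, so that control 3 lay below every canagliflozin pool. The lowest of the muscle genes was tnnt2e, a gene for troponin, the calcium switch of the sarcomere. Canagliflozin pools 1 to 4 had tnnt2e at 8.57, 10.7, 11.5 and 13.2 CPM, against 24.4, 22.4, 10.9 and 15.4 CPM in controls 1 to 4. Canagliflozin 3 and 4 lay above control 3, and tnnt2e differed by -0.63 (-1.03 to -0.24). tnni1d and tnnt2d, also troponin genes, differed by -0.44 and -0.37. Of 16 notochord markers 14 had a lower mean, with a median of -0.06. By the median deviation of these markers control 3, at -0.0946, lay below every canagliflozin pool. Voltage-gated sodium and calcium channels, which excite muscle and neurons, had a median of -0.10 with 8 of 27 higher, or -0.04 without control 4 and canagliflozin 4 and -0.02 without canagliflozin 4 alone.

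Markers of other cell types differed little. Pigment cell markers had a median of 0.07 with 20 of 26 higher, led by the neural crest gene sox10 at 0.34 (0.12 to 0.56). The median was 0.07 for 27 endothelial markers, 0.06 for 31 of the pronephros, 0.03 for 19 of the heart and -0.08 for 19 of red cells, with the membrane skeleton gene epb41b at -0.40 (-0.68 to -0.12). Without control 4 and canagliflozin 4 the median was 0.07 for the heart and -0.13 for red cells. These and the medians of muscle and notochord kept their sign in all 22 alternatives. Epidermis and ionocytes (-0.001, 29 genes), myeloid cells (-0.03, 23 genes) and yolk syncytial layer and liver (0.04, 25 genes) turned sign in at least 2 alternatives. In the last list the ceruloplasmin gene cp ran from 26.8 to 72.1 CPM in controls and from 13.7 to 48.7 CPM in canagliflozin, at a difference of -0.77 (-1.55 to 0.003), and serpina1 was highest at 0.26. The hatching enzyme gene he2 differed by 0.48 (0.14 to 0.82) while the median of 10 hatching gland genes was -0.06. Germ cell markers had a median of -0.004 over 8 genes, with the germ plasm helicase gene ddx4 at -0.29.

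Developmental signalling and patterning families lay within 0.1 of zero at the median with all pools. Wnt ligands and receptors had the highest of these medians, 0.08, with 31 of 43 higher, 5 at an unadjusted p under 0.05 with a higher value and 1 with a lower (4.20% and 3.53% over all tested genes). Within it wnt10b was highest at 0.46 (0.20 to 0.71) and wnt9b lowest at -0.45 (-0.87 to -0.02), with canagliflozin 4 of wnt9b at 7.21 CPM and the other 3 canagliflozin pools at 16.8 to 18.2 CPM. The receptor gene fzd7a differed by 0.22. The median was 0.07 for the hedgehog pathway, 0.04 for Notch and Hes/her genes, -0.05 for FGF ligands and receptors and -0.003 for the BMP and TGF-beta family, the last with turns of sign. The 48 Hox genes, which pattern the body axis, had a median of -0.02 and size limits below 1.5-fold for all 48, and 42 forkhead genes had a median of 0.04. Both of these turned sign in some alternatives. Without control 4 the median was 0.11 for forkhead, 0.10 for Sox and 0.13 for GATA factors, and without canagliflozin 4 it was -0.11 for Hox genes and -0.13 for GATA factors.

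Stress and immediate-early programmes showed no shared direction. The integrated stress and unfolded protein response list had a median of 0.01 over 28 genes, a sign that turned in 5 of 22 alternatives. In it atf4a, the transcription factor of that response, differed by 0.25, and ddit4, an inhibitor of mTOR complex 1, by 0.36 (-0.05 to 0.77). Immediate-early genes had a median of -0.04 over 25 genes, which turned to 0.07 without control 3, and klf6a differed by -0.28. Circadian clock genes, 29 tested, had a median of -0.03 and a size limit below 1.5-fold in 28. Single genes with low p outside the families were nfil3-2, a bZIP repressor gene, at -0.46 (-0.68 to -0.25) and ap1ar, for a regulator of vesicle transport linked to adaptor complex 1, at -0.47 (-0.68 to -0.26). ap1ar was at 10.9, 9.80, 10.9 and 10.9 CPM in controls 1 to 4 and at 7.16, 8.20, 8.0 and 6.33 CPM in canagliflozin pools 1 to 4. The pools of ap1ar did not overlap, and controls 3 and 4 stood with controls 1 and 2. The oxidase gene nox1 differed by -0.78 (-1.33 to -0.23), with control 4 and canagliflozin 4 the lowest pool of each group.

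**Figure D5:**
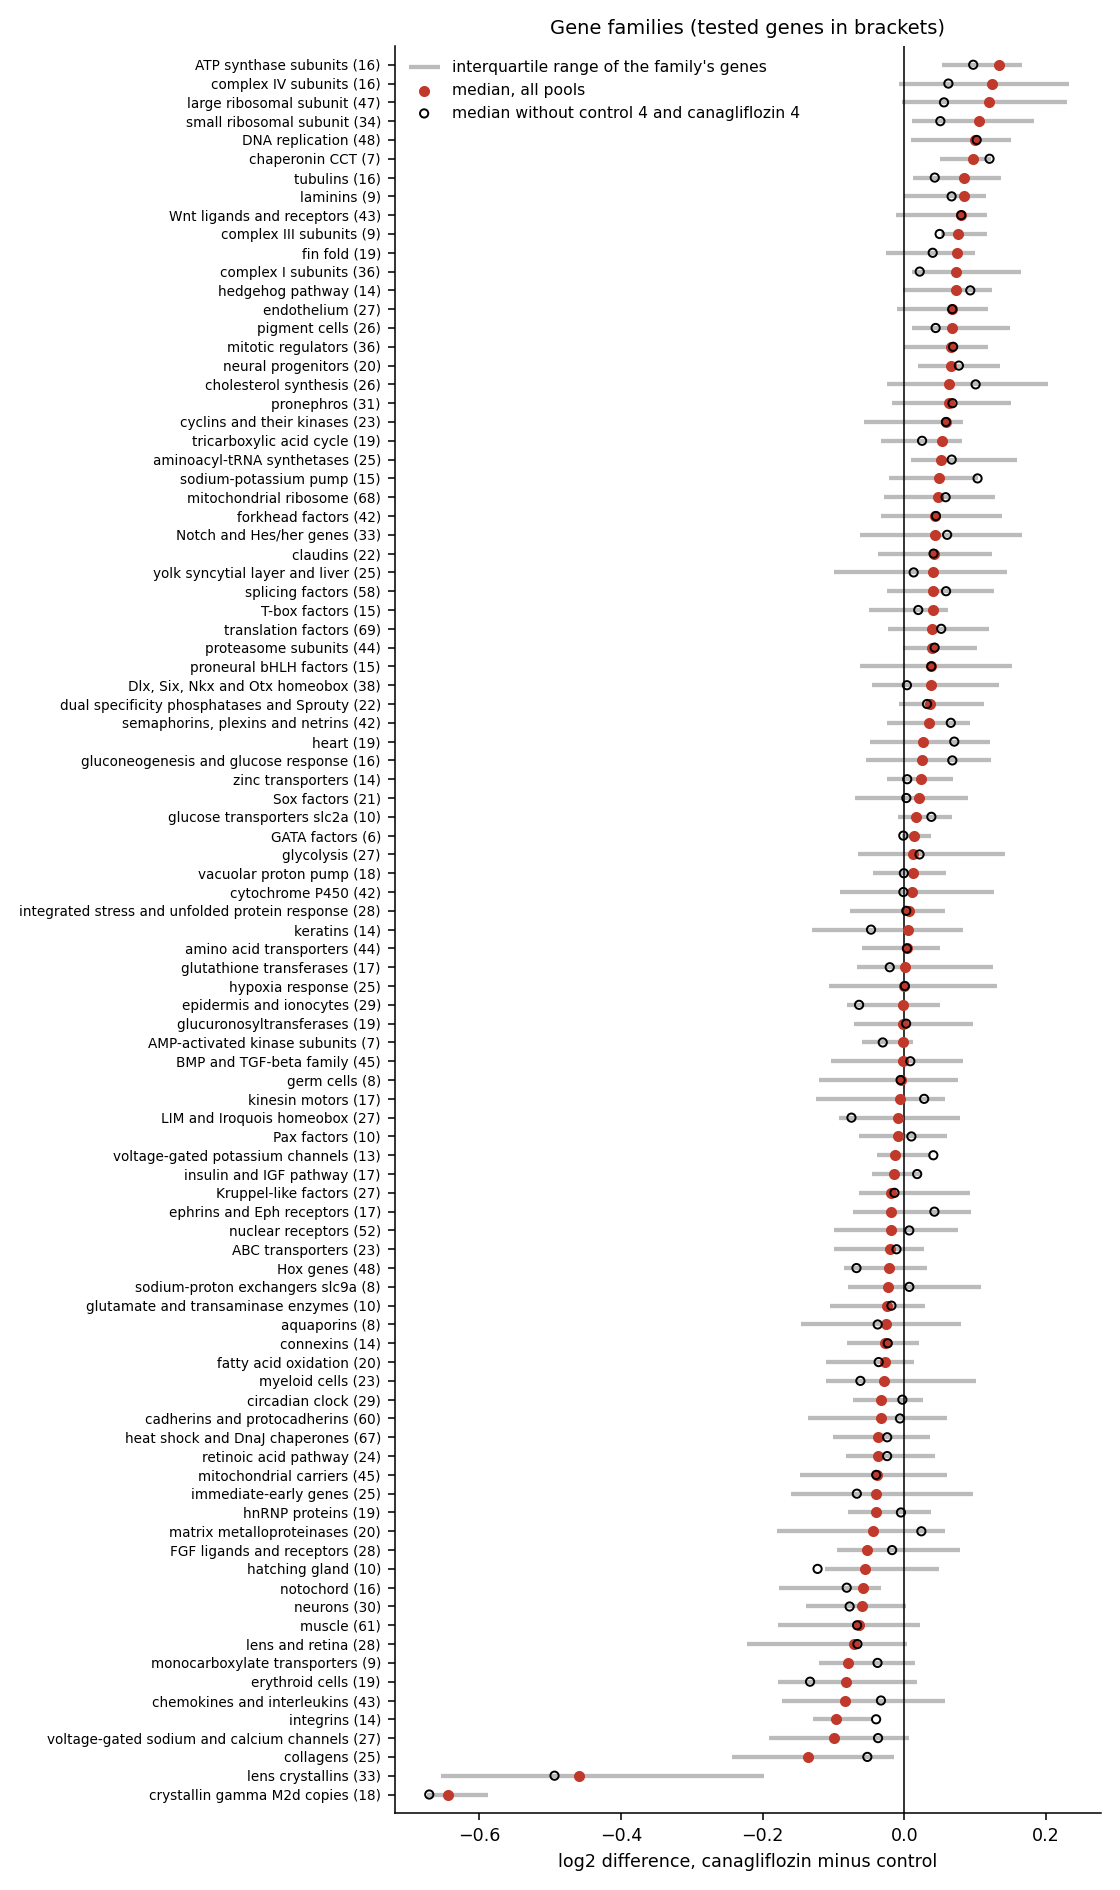
Median log2 difference of canagliflozin minus control (horizontal axis) in 93 gene families with at least 5 tested genes, in order of the median, with the number of tested genes in brackets. Filled points are medians over all pools, open points medians without control 4 and canagliflozin 4, and grey bars span the interquartile range of the family's genes; all but 7 filled points lie within 0.1 of zero.

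Over the 93 families, 49 had a higher and 44 a lower median, and the median was below 0.1 in size in 86 and below 0.05 in 57. The sign held in all 22 alternatives in 45 families, and in 77 it was the same without control 4 and canagliflozin 4. Some of the 22 leave the differences unchanged and could not turn a sign. The 7 medians of 0.1 or more belonged to both crystallin lists, collagens, both ribosomal subunits, complex IV and ATP synthase.

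Several of these families were also compared between the compounds. Both compounds share the same 4 controls, so the test used was that of empagliflozin against canagliflozin at the same 50 µM and 4 hours, in which limma called 3049 of 11964 genes (25.5%), 1485 higher (12.4%) and 1564 lower (13.1%) in empagliflozin. Of the 33 lens crystallins 23 were called higher and 0 lower in empagliflozin, with a median difference of 0.63. crygm2d5 was at 19.7 to 31.3 CPM in empagliflozin and 7.87 to 8.65 CPM in canagliflozin, a log2 difference of 1.51 (limma adjusted p 0.000158), and atoh7 differed by 1.39 (limma adjusted p 0.00203). Of 48 DNA replication genes 4 were called higher and 26 lower in empagliflozin, with a median of -0.25, and mcm4 differed by -0.29 (limma adjusted p 0.00255). Of 47 genes of the large ribosomal subunit 0 were called higher and 27 lower, of 34 genes of the small subunit 1 higher and 24 lower, and of 36 complex I subunits 1 higher and 20 lower. kpnb3 differed by -0.28 (limma adjusted p 0.00565), neurog1 by -0.45 (limma adjusted p 0.00521) and ap1ar by 0.84 (limma adjusted p 0.000158). The genes named here were picked by their values in the same canagliflozin pools, so these tests are not independent of the comparison with control.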

How the data were processed

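The authors sequenced 12 libraries (stranded mRNA kit, paired reads of 50 bp), per the labels' protocols. FastQC, R 3.6.1 and the danRer10 genome build are named in the submitters' processing notes, and for the aligner and counter a name is not given in the sources used. The signal table deposited by the authors proved to be TMM-scaled CPM: all values (100%) were whole reads within 0.001 reads. The authors' comparison table gives p-values and false discovery rates, log2 changes, other values (a signed fold) and group means, and was used only for its 3 genes. No 2 pools of a group were copies (chi-square per degree of freedom 5.16 to 41.0). The floor from reads covers counting error only. The intervals in brackets and the size limits come from the limma fit, and so rest on the spread among all 12 pools, those in empagliflozin included.

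Genes were fitted with limma 3.58.1 (R 4.3.3) on log2(CPM + 1) over 12 libraries, with 3 group means and a variance trend, two-sided, with Benjamini-Hochberg adjustment over 11964 genes and a threshold of 0.05. Log2 differences are canagliflozin minus control, with 95% intervals in brackets. edgeR 4.0.16 and DESeq2 1.42.0 were run on the recovered reads. Tests were checked on simulated counts. The 97 families were defined by symbol pattern or list, 93 had at least 5 tested genes, and a family is described by counts and its median, with no test. The members, the families and the rule for named genes were chosen with earlier results of these data known, and patterns that took in unrelated genes were corrected after values had been seen.

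Named genes were the 30 with the smallest p, the 10 highest and 10 lowest with an interval off 0, glucose transporters, the extremes and 2 smallest p of each family, genes called in any alternative or listed by the authors, and the widest intervals. Not every gene so selected is reported. cryaa, mipb, crx, mcm2, mcm5, mcm6 and pcna were named after their values were seen. Alternatives were a pseudocount of 0.1 or 5, a minimum of 5 CPM or none, normalization by quantiles, centring on the median, a block for the replicate number, the 8 libraries alone, no variance trend, robust variance, library weights, edgeR, DESeq2, an adjusted p threshold of 0.1, each pool left out in turn, and control 4 and canagliflozin 4 left out together.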

Additional observations from a re-analysis of the deposited data

Results flagged for a closer look

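In the groups of 4 pools behind the 93 genes named and the 7 families with a median of 0.1 or more in size, 13 of 200 groups held a pool far from the other 3, where chance gives about 1 in 20. The measure is the pool's gap to the nearest other pool as a share of the group's range on the log2(CPM + 1) scale.

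Canagliflozin 4 was that pool in 6 of the 13. It was low for mcm3 (0.946, at 240.1 CPM), and for wnt9b (0.912, at 7.21 CPM). It was high for neurog1 (0.847, at 89.1 CPM), snrpc (0.874, at 108 CPM), cox6a1 (0.831, at 281 CPM) and col9a2 (0.902, at 294 CPM). Control 3 was that pool for crygm2d8 (0.851, low at 23.1 CPM), iars (0.869, high at 115 CPM) and fosab (0.909, high at 23.0 CPM). Control 1 was low for bub3 (0.924, at 74.2 CPM) and rps10 (0.930, at 655 CPM), control 2 was low for ap1ar (0.965, at 9.80 CPM), and canagliflozin 2 was high for crygm2d21 (0.858, at 19.7 CPM). What set these pools apart was not tested.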

How the results depend on the processing

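Between canagliflozin and control, limma called 0 genes, and of the alternatives 24 were called by DESeq2, 42 with library weights and 7 without control 3, while every other alternative called 0, the threshold of 0.1 included. Leaving out 1 pool gave 0 to 7 called genes, 723 to 1218 genes whose pools do not overlap (537 with all pools), 10959 to 11269 genes with an interval inside 1.5-fold, a median reach of the interval to either side of 0.21 to 0.24 and 49 to 57 of 93 families with a higher median. Without control 4 and canagliflozin 4, 1963 genes did not overlap, which 3 pools against 3 also favours by construction. Of 93 named genes, 86 kept their direction in every alternative run, some of which leave the differences unchanged by construction. Under quantile normalization mcm5, mcm6 and slc5a9 turned to -0.044, -0.037 and 0.0035, and with library weights irg1l and fosab turned to 0.17 each. With 1 pool left out, crybb1 ran from -0.15 to 0.010, mcm5 from -0.034 to 0.077, mcm6 from -0.030 to 0.075, slc5a9 from -0.12 to 0.11, mmp9 from -0.38 to 0.98, irg1l from -0.82 to 0.80 and fosab from -0.75 to 0.31. The cause was not tested.

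Deviations of same-numbered pools correlated at 0.0770, 0.000277 and -0.125 across genes for pools 1 to 3. Those of control 4 and canagliflozin 4 correlated at 0.592, the highest of any control and canagliflozin pair. The next was 0.331, for control 3 and canagliflozin 2. What control 4 and canagliflozin 4 share was not tested. With the replicate number as a block limma called 0 genes, the smallest adjusted p was 0.148, and 1146 genes had an unadjusted p under 0.05. Without the block the smallest limma adjusted p was 0.385, and 925 genes had an unadjusted p under 0.05. Other settings moved these limma values in either direction. They were 0.773 and 749 genes with the 8 libraries alone, 0.927 and 577 without control 1, and 0.700 and 731 without control 2. Without control 3 they were 0.000348 and 1094, and without control 4 they were 0.189 and 1203. At the median the interval reached 0.32 to either side at 1 to 5 CPM and 0.18 at 100 CPM and over. The parts of depth and of the spread between pools in this were not tested.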

Other observations

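Some families not described above had more members with a higher than with a lower mean, and others had more with a lower mean. Tubulins had a higher mean in 12 of 16 genes, with a median of 0.08, which turned to -0.004 without canagliflozin 4. Semaphorins, plexins and netrins, which guide axons and vessels, were higher by mean in 28 of 42 genes, with a median of 0.03, and claudins of tight junctions in 15 of 22, with a median of 0.04. The sodium-potassium pump, which sets the sodium gradient that drives slc5a cotransport, was higher in 10 of 15 genes, with a median of 0.05, or 0.10 without control 4 and canagliflozin 4. Cadherins and protocadherins had a lower mean in 38 of 60 genes, with a median of -0.03, which turned to 0.01 without canagliflozin 4. Chemokines and interleukins were lower in 25 of 43 genes (median -0.08) and connexins in 10 of 14 (-0.03). Monocarboxylate transporters were lower in 6 of 9 (-0.08) and insulin and IGF pathway genes in 11 of 17 (-0.01). limma called 0 of all 11964 tested genes at the adjusted threshold, those of these families included.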
